A study of Danio rerio with 3 samples.

Results

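MN4 is a class of motor neurons in a single-cell RNA data set of zebrafish embryos, and its members were taken as all cells that carry the name MN4 in the finer class column of the deposited integrated annotation. There were 297 such cells of 6264 in all. The cells came from untreated wild-type embryos carrying the Tg(olig2:EGFP) transgene, which were dissociated whole after removal of the yolk, and green fluorescent cells were sorted and captured with the 10x Chromium 3' kit. There were 3 libraries, 1 each at 24, 36 and 48 hours post fertilisation (hpf), all of the same transgenic strain and none treated. The sort keeps cells in which the olig2 regulatory sequences drive EGFP or in which the protein has lasted, and the number of embryos behind each library is not stated in the labels. With 1 library per stage no value has a replicate. No p-value was computed, because cells that share a library do not replicate each other, and intervals given below compare these libraries by the counting of their cells, not the stages.

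Motor neurons of the spinal cord carry signals from the cord to muscle and release acetylcholine. In zebrafish, large primary motor neurons are born early and smaller secondary motor neurons later, both from the olig2-expressing pMN domain of the ventral cord. Motor neurons have left the cell cycle. They are usually recognised by mnx1, a homeodomain transcription factor, by slc18a3a, which loads acetylcholine into synaptic vesicles, and by chata, which makes acetylcholine. The tables used here give values per cell and no values per gene, so the name MN4 could not be checked against these markers. The measurements for each cell were its UMIs (unique molecular identifiers, each standing for 1 captured RNA molecule), its detected genes, its mitochondrial percent of UMIs, its S and G2M scores with the phase called from them, and its name in 2 annotations, 1 made over all stages together and 1 for each stage.

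MN4 cells were rare at 24 hpf and made up a larger share of each later library. They numbered 7 of 1826 cells at 24 hpf (0.383%, exact 95% binomial interval 0.154 to 0.788), 80 of 2044 at 36 hpf (3.91%, 3.12 to 4.85) and 210 of 2394 at 48 hpf (8.77%, 7.67 to 9.98). The share in the 36 hpf library was 10.2 times that at 24 hpf (exact conditional 95% interval 4.73 to 26.2), and that in the 48 hpf library was 2.24 times that at 36 hpf (1.72 to 2.94). Both differences passed a rule of size, a ratio of at least 2 with intervals that do not overlap, which describes these libraries and is no test of stage. The second no longer passed once the deepest 5% of cells were left out, where the log2 ratio was 0.94. Among the motor neuron classes MN1 to MN5 alone, MN4 was 4.93% (2.0 to 9.89) at 24 hpf, 22.3% (18.1 to 27.0) at 36 hpf and 25.8% (22.9 to 29.0) at 48 hpf, so the intervals of the later stages overlapped. All intervals cover counting error only and leave out how embryos, sorts or libraries vary, and fewer sorted cells of other classes would also raise the share of MN4.

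MN4 took a larger part of the RNA molecules than of the cells at 48 hpf. Of all UMIs, its cells held 0.251% in the earliest library, 4.20% in that of 36 hpf and 16.9% in that of 48 hpf, where they were 8.77% of the cells. At 48 hpf the lowest MN4 cell had 1809 UMIs, the median 9200.5 and the highest 172754, against 520, 5546 and 43700 in the 2184 other cells. The quartiles were 6067.5 and 17022.5 in MN4 and 4149.75 and 8060.75 in the others. The MN4 median was 1.66 times that of the others, and 170 of 210 MN4 cells (81.0%) were above the median of the others. A median is called higher here when it is at least 1.5 times the other and the lower quartile of MN4 lies above the other median, and MN4 met this size rule at 48 hpf. The rule was no longer met once the deepest 5% of cells of the library were left out, where the log2 ratio of medians was 0.41 in place of 0.73.

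At the earlier stages the median MN4 cell had no more UMIs than the median of the other cells. The 7 cells of 24 hpf had 1352, 1629, 2026, 6138, 8542, 10590 and 10971 UMIs, a median of 6138 against 8957 in the other 1819 cells. Their spread was wide, and 2 of 7 lay above the median of the others. At 36 hpf the lowest MN4 cell had 647 UMIs, the median 4493.5 and the highest 17045, against 514, 4570.5 and 39305 in the 1964 others. The ratio of medians was 0.983 at 36 hpf and 0.685 at 24 hpf, and the size rule was met at neither stage. Against only those other cells called G1, the ratio was 1.12 at 36 hpf, with 49 of 80 MN4 cells above, and 0.841 at 24 hpf. Neither met the rule, while the ratio of 1.75 against such cells at 48 hpf did. Against single motor neuron classes of 24 hpf the ratio was 0.614 for MN1 (43 cells), 1.06 for MN2 (59 cells), 1.44 for MN3 (4 cells) and 0.795 for MN5 (29 cells), and only the lower median than in MN1 met the rule. By the median, MN4 thus met the rule for higher UMIs at 48 hpf and at neither earlier stage. Of the 129 cells of 36 hpf with more than 10000 UMIs, 14 were MN4 (10.9%), above its share of 3.91% of all cells. Of the 704 such cells of 24 hpf, 2 were MN4 (0.284%), which was not above its share of 0.383%.

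**Figure D1:**
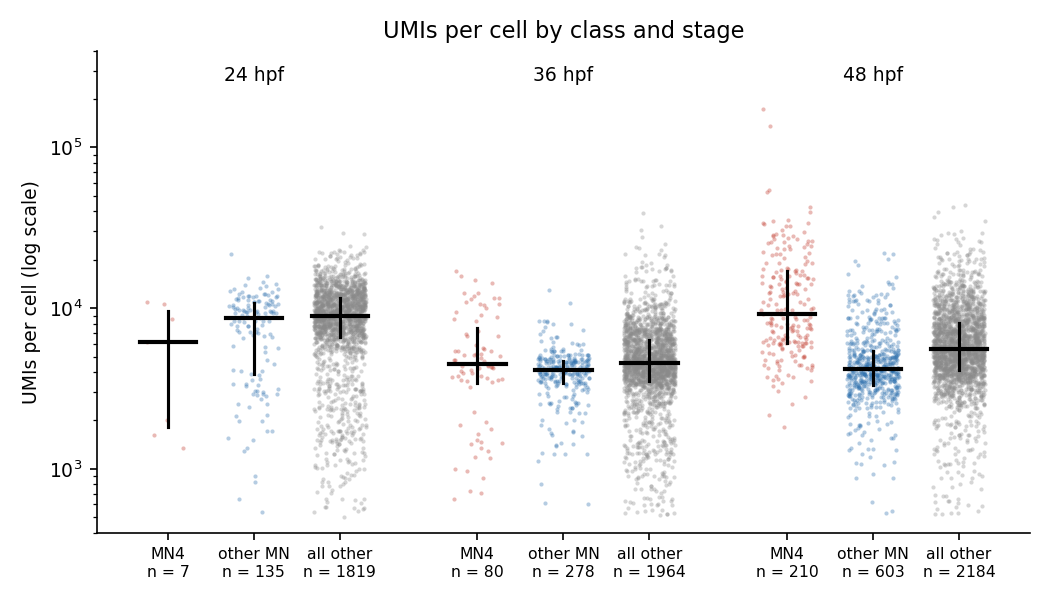
UMIs per cell on a log axis for MN4 (red), for the motor neuron classes MN1, MN2, MN3 and MN5 (blue) and for all cells outside MN4 (grey) at each stage. Each point is 1 cell, the horizontal bar is the median and the vertical bar spans the quartiles; the MN4 bar stands above the others at 48 hpf only, with medians of 9200.5, 4164 and 5546.

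The other motor neuron classes of the 48 hpf library were shallow, so the gap was wider within the motor neurons than against all cells. The median was 5299 UMIs in MN1, 4272 in MN2, 4498.5 in MN3 and 3401.5 in MN5. The MN4 median was 1.74 times that of MN1, 2.15 times that of MN2, 2.05 times that of MN3 and 2.70 times that of MN5, and each of these met the size rule. Pre-MN, the class named as precursor of motor neurons, had a median of 5111 UMIs, and the MN4 median was 1.80 times as large. The lower quartile of MN4, 6067.5 UMIs, was above the upper quartile of MN2 (5242), MN3 (5019.5) and MN5 (4193), but not above that of MN1 (7957) or Pre-MN (6208). The same comparison at 36 hpf gave ratios of 1.20 for MN1, 1.04 for MN2, 1.12 for MN3 and 0.996 for MN5, none of which met the rule.

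In the order of all 28 classes by median UMIs, MN4 stood 6th at 48 hpf, 18th at 36 hpf and 21st of 27 at 24 hpf. Above it at 48 hpf were Retinal Progenitor (12778 UMIs, 9 cells), MEP Glia (glia at the exit points of motor axons, 12594), the progenitor classes pMN1 (10525) and pMN2 (10203), and Mes1 (9786, 24 cells). Next below it was Pre-OL, a class of the oligodendrocyte lineage, with 8669. The quartiles of these neighbours overlapped with those of MN4, so the order among them is within the spread of the cells. The classes with the highest medians at the earlier stages were Pre-OL (2 cells), MEP Glia (15 cells) and V2 IN Precursor (23 cells) at 36 hpf and V2 IN Precursor (16 cells), NM Progenitor and pMN1 at 24 hpf. The neighbours of MN4 were CSF-cN2 (4510) and MN2 (4315) at 36 hpf, and NP1 (6146) and MN2 (5771) at 24 hpf.

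MN4 also spread more widely in UMIs than most classes. Its upper quartile was 2.81 times its lower quartile at 48 hpf, the largest such ratio among the 21 classes with at least 20 cells, against 1.94 in MN1, 1.40 in MN2, 1.28 in MN3 and 1.54 in MN5. The ratio at 36 hpf was 2.19, the third largest of 21 classes, against 1.25 in MN1 and 1.36 in MN2.

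The cells of each library were ordered by UMIs and cut into 10 equal parts to see where MN4 lay. At 48 hpf MN4 made up 2.09% of the part with the fewest UMIs (5 of 239 cells, exact interval 0.683 to 4.81) and 33.8% of the part with the most (81 of 240 cells, 27.8 to 40.1). The shares of the 5 lower parts ran from 2.09% to 4.18% and those of the sixth to the ninth from 6.69% to 12.1%. At 36 hpf MN4 was at both ends instead, with 8.82% of the lowest part (18 of 204 cells, 5.31 to 13.6) and 9.27% of the highest (19 of 205 cells, 5.67 to 14.1), and at most 4.90% in any part between. These 2 parts held 22.5% and 23.8% of the MN4 cells of that stage. At 24 hpf 3 of the 7 cells were in the lowest part and none in the 2 highest.

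**Figure D2:**
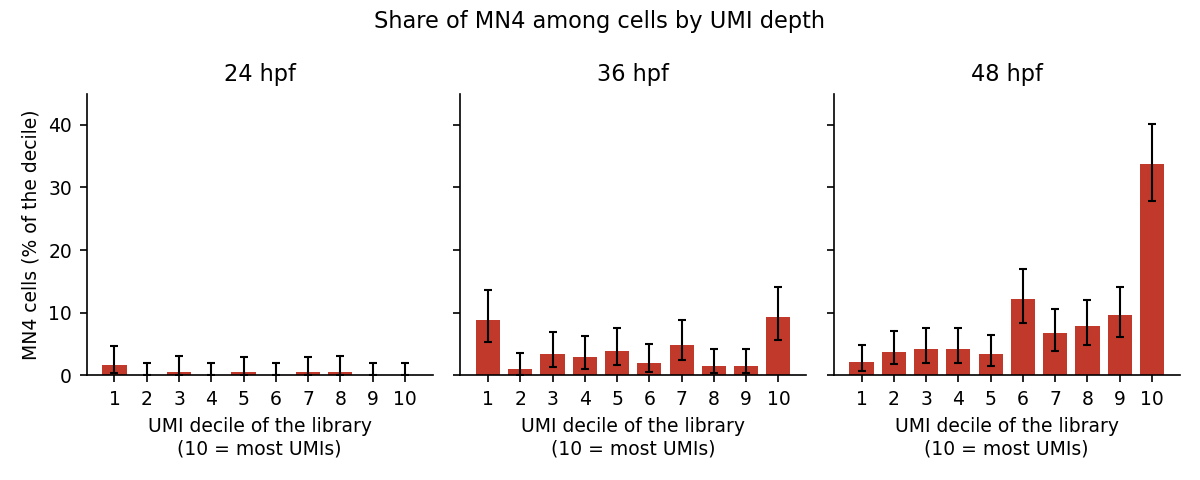
Share of MN4 (percent of cells, y axis from 0) in each of 10 equal parts of a library ordered by UMIs, from the fewest (1) to the most (10), at 24, 36 and 48 hpf. Bars are shares and whiskers exact 95% binomial intervals; the share reaches 33.8% in the last part at 48 hpf, while at 36 hpf the first and last parts (8.82% and 9.27%) are the tallest.

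The deepest cells of the 48 hpf library were to a large part MN4. Above 20000 UMIs there were 83 cells, of which 42 were MN4 (50.6%, 39.4 to 61.8), 17 MEP Glia and 3 MN1. These were 42 of 210 MN4 cells, 17 of 53 MEP Glia and 3 of 159 MN1 cells, so a larger part of MEP Glia was this deep. The 42 MN4 cells held 49.3% of the UMIs of their class. Above 10000 UMIs 97 of 420 cells were MN4 (23.1%, 19.1 to 27.4) at 48 hpf, 14 of 129 (10.9%, 6.06 to 17.5) at 36 hpf and 2 of 704 (0.284%, 0.0344 to 1.02) at 24 hpf. The 2 cells with over 100000 UMIs in the whole series were both MN4 of 48 hpf, with 172754 and 136615 UMIs, and the next deepest MN4 cell had 54522. Without these 2 cells MN4 held 15.4% of the UMIs of the library and the log2 ratio of medians was 0.70 in place of 0.73. They differed from each other in detected genes, with 8404 in the first and 3280 in the second, or 48.6 and 24.0 genes per 1000 UMIs. No source used here says how doublets (2 cells under 1 barcode) were handled, and their part in these very deep cells was not tested.

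Detected genes followed the UMIs at 24 and 48 hpf. At 36 hpf the MN4 median was above that of the other cells in genes (ratio 1.08) but not in UMIs (0.983). At 48 hpf MN4 cells had from 910 to 8404 genes with a median of 2749.5, against 1879.5 in the other cells and 1651 in the other motor neuron classes. The MN4 median was the second highest of the 21 classes with at least 20 cells, after MEP Glia (2806). At 36 hpf the median was 1446.5 genes against 1343 in the others, and the 7 cells of 24 hpf had 666 to 2340 genes with a median of 1614 against 2049.

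Because more UMIs bring more genes, each MN4 cell was also set against the other cells of its stage whose UMIs were within 10% of its own. At 48 hpf 197 MN4 cells had at least 5 such cells, and 191 of them (97.0%) had more genes than the median of those cells. The median ratio was 1.11, with quartiles of 1.07 and 1.15. At 36 hpf the ratio was 1.12 (quartiles 1.07 and 1.17), above 1 in 76 of 80 cells, and at 24 hpf it was 0.989, above 1 in 3 of 7 cells. In plain bins, cells of 4000 to 6000 UMIs had 1910 genes in MN4 (33 cells) against 1722 in the others at 48 hpf, and 1521 (25 cells) against 1367 at 36 hpf. Cells of 12000 to 20000 UMIs had 3702 genes in MN4 (46 cells) against 3097 at 48 hpf, where the MN4 cells were also somewhat deeper within the bin, with 15369 against 13957 UMIs.

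This surplus of genes was smaller or turned when MN4 was set against other motor neurons. Within 10% of the UMIs, MN4 cells of 48 hpf had 1.01 times the genes of MN1, MN2, MN3 and MN5 cells together (149 MN4 cells with a value), and at 36 hpf 0.963 times (54 cells), where 18 of 54 were above 1. Class by class at 48 hpf the ratio was 1.04 against MN1, 0.964 against MN2, 1.01 against MN3 and 1.02 against MN5. At 36 hpf it was 0.993, 0.919, 0.890 and 1.09 in the same order. These ratios rest on 129, 93, 50 and 101 of the 210 MN4 cells at 48 hpf. At 36 hpf they rest on 33, 41, 22 and 35 of 80. Other motor neurons of 48 hpf reached at most 22025 UMIs, so MN4 cells far above that have no value here. In the plain bin of 12000 to 20000 UMIs at 48 hpf, MN4 had 3702 genes (46 cells) against 3384 in other motor neurons (17 cells). The MN4 cells of this bin had a median of 15369 UMIs. The depth of the 17 cells within the bin was not compared with it, so this gap is not one at like depth. Against Pre-MN the ratio at like depth was 1.13 at 48 hpf and 1.17 at 36 hpf. At a like depth MN4 was above Pre-MN in number of genes in 109 of 119 cells at 48 hpf and 34 of 34 at 36 hpf.

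**Figure D3:**
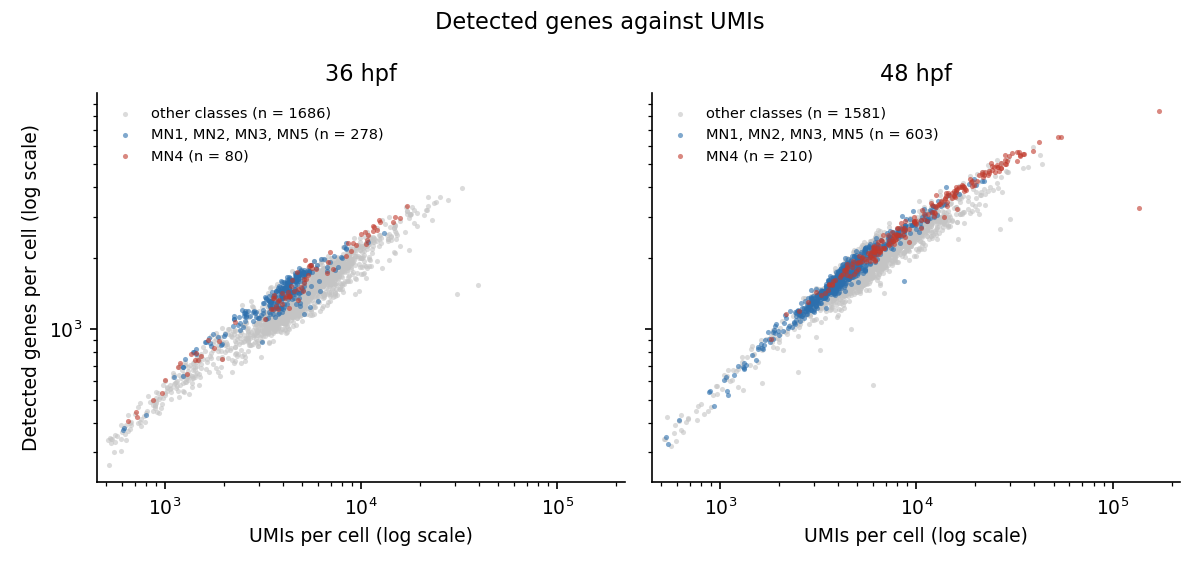
Detected genes against UMIs per cell, both on log axes, at 36 and 48 hpf, with MN4 in red, the other motor neuron classes in blue and all other classes in grey. Most MN4 cells lie above the middle of the cloud, with median ratios of 1.12 and 1.11 against all other cells of like depth. They do not form its upper edge alone. At 48 hpf the class CSF-cN2 had a median of 2289 genes at 5837 UMIs, and MN4 cells of 6000 to 8000 UMIs had 2262 at 6620. The cell of 136615 UMIs and 3280 genes lies far below the other MN4 cells of high depth.

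The mitochondrial percent of MN4 was above that of the other cells at the later stages. At 48 hpf it ran from 1.23% to 4.94% with a median of 2.79%, against 2.31% in the others, and 159 of 210 MN4 cells (75.7%) were above the median of the others. At 36 hpf it ran from 0.545% to 4.96% with a median of 1.52% against 1.05%, and 68 of 80 cells (85.0%) were above. At 24 hpf the 7 cells ran from 0.433% to 4.36% with a median of 0.878% against 0.686%. Among classes with at least 20 cells the MN4 median was the second highest at both later stages, after Pre-OL at 48 hpf and MN2 at 36 hpf.

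Part of this difference was shared by all motor neurons. The MN4 median was 0.205 percentage points above that of MN1, MN2, MN3 and MN5 together at 48 hpf, against 0.476 above all other cells, and 0.165 against 0.470 at 36 hpf. Against cells within 10% of the UMIs the medians of the differences were 0.525 points for all other cells and 0.092 for the other motor neuron classes at 48 hpf. Against the latter 78 of 149 MN4 cells were above. Class by class at like depth, MN4 was below MN1 (-0.082 points at 48 hpf and -0.058 at 36 hpf) and MN2 (-0.055 and -0.059). It was above MN5 (0.046 and 0.032), and against MN3 the differences were 0.421 and -0.020. At like depth an excess over every other motor neuron class was thus not seen. For MN1, MN2, MN3 and MN5 these values covered 129, 93, 50 and 101 of the 210 MN4 cells of 48 hpf. Of these, 61 of 129 were above MN1 and 46 of 93 above MN2. Without regard to depth, the MN4 median of 48 hpf was above all 4 classes, by 0.084, 0.281, 0.223 and 0.287 points. The same differences at 36 hpf were 0.290, -0.004, 0.202 and 0.343. At 36 hpf the shallowest MN4 cells carried the highest values, with a median of 4.12% in the 18 cells of up to 1959 UMIs, against 3.13% in other cells and 3.97% in other motor neurons of that depth. The 14 MN4 cells above 10000 UMIs at 36 hpf had a median of 1.52%, and the 42 above 20000 at 48 hpf one of 2.76%. In molecules, the median MN4 cell of 48 hpf had 271 mitochondrial UMIs against 126.5 in the other cells and 103 in the other motor neurons. With mitochondrial UMIs taken away the log2 ratio of median UMIs was 0.72 at 48 hpf.

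Nearly all MN4 cells were called G1, the phase given to a cell when neither score is above 0. In the calls of the integrated table, 0 of 7 cells at 24 hpf were S or G2M (an interval up to 41.0%), 6 of 80 at 36 hpf (7.5%, 2.80 to 15.6) and 2 of 210 at 48 hpf (0.952%, 0.116 to 3.40). The other cells were at 66.1%, 39.9% and 21.9%, and the other motor neuron classes at 1.48%, 1.08% and 0.498%. In these integrated calls the intervals of MN4 and of the other motor neuron classes (0.223 to 3.12 at 36 hpf) overlapped at every stage. At 36 hpf they did so only between 2.80 and 3.12, with the larger share in MN4. Overlap does not show that the shares are alike. By class, 1 of 82 MN1, 0 of 125 MN2, 0 of 26 MN3 and 2 of 45 MN5 cells were called at 36 hpf. Median S scores in MN4 were -0.375, -0.392 and -0.409 at the 3 stages, against -0.0533, -0.241 and -0.254 in the other cells. Median G2M scores were -0.286, -0.304 and -0.316 in MN4 against 0.00998, -0.129 and -0.174.

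The MN4 cells called S or G2M were deep. The 6 cells of 36 hpf had 9027, 12362, 14434, 14869, 15790 and 17045 UMIs, a median of 14651.5 against 4327.5 in the G1 cells of the class. Of these 6 cells 3 were named MN2, 2 pMN2 and 1 MN1 in the stage table, and both MN4 cells with the progenitor name pMN2 were among them. With the deepest 5% of cells left out, the share at 36 hpf was 1.45%. At 48 hpf the 2 cells had 35334 UMIs (S score 0.827, named CMN Precursor in the stage table) and 136615 UMIs (G2M score 0.160).

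The stage tables gave other calls to the same cells at 48 hpf. There 19 of 210 MN4 cells (9.05%, 5.54 to 13.8) were called S or G2M, 14 of them S and 5 G2M, and their median was 6069 UMIs against 9936 in the cells called G1. Of these 19 calls 18 rested on a score of at most 0.1, and 1 was above it. In the other cells the same table called 35.7%, and in the other motor neuron classes 22.4% (135 of 603, 19.1 to 25.9). With calls kept only where a score was above 0.1, 1 of 210 MN4 cells and 2 of 603 cells of the other motor neuron classes remained, so the gap between them rested on scores near 0. The calls of the tables were equal in 191 of 210 MN4 cells (91.0%), 72.1% of all other cells and 78.1% of the other motor neurons at 48 hpf. The 36 hpf stage table called 8 of 80 MN4 cells (10.0%, 4.42 to 18.8) and 38.8% of all other cells. In the other motor neuron classes it called 3 of 278 (1.08%, 0.223 to 3.12). These intervals of MN4 and of the other motor neuron classes did not overlap. A score above 0.1 was seen in 5 of the 80 MN4 cells and 2 of the 278. The 24 hpf stage table called none of 7 MN4 cells, 2.22% of the other motor neuron classes and 63.1% of all other cells.

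**Figure D4:**
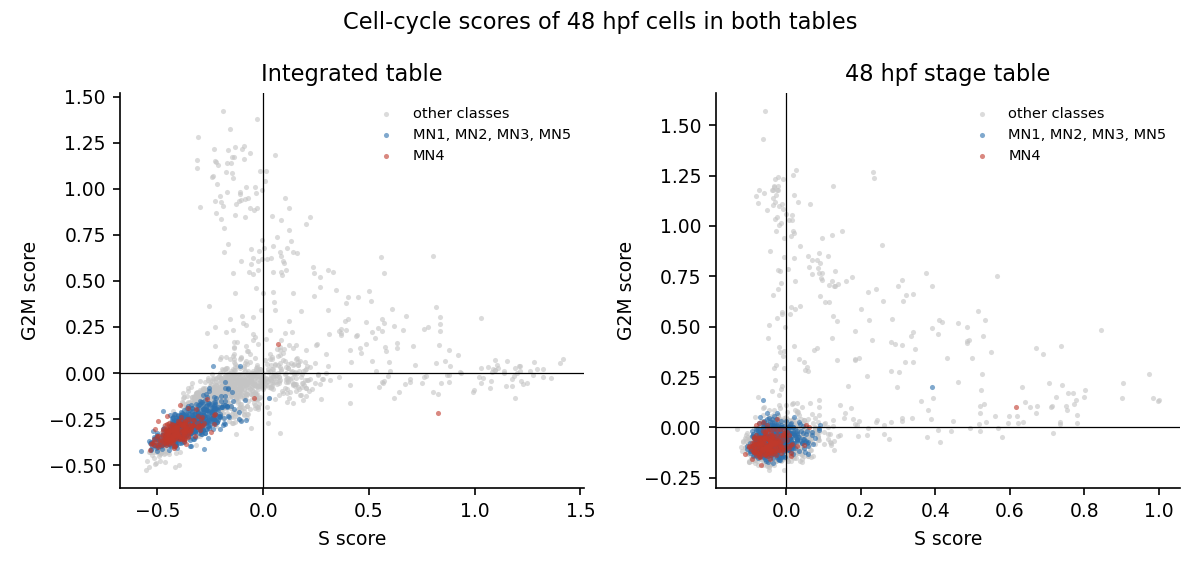
S score (x axis) and G2M score (y axis) of each 48 hpf cell in the integrated table and in the 48 hpf stage table, with lines at 0, MN4 in red, other motor neuron classes in blue and other classes in grey. Most MN4 cells lie below 0 in both scores, but in the stage table they lie close to the lines, with a median S score of -0.0501 against -0.409 in the integrated table.

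The same barcodes had motor neuron names in the stage tables for most cells. The name MN4 occurs only in the 48 hpf table, since the motor neuron names are MN1 alone at 24 hpf and MN1 and MN2 at 36 hpf. A name of the MN series was held by 6 of 7 MN4 cells at 24 hpf, 76 of 80 at 36 hpf (95%, 87.7 to 98.6) and 207 of 210 at 48 hpf (98.6%, 95.9 to 99.7). Over all cells, MN1 was held by 123 of 1826 at 24 hpf. MN1 and MN2 were held by 176 and 164 of 2044 at 36 hpf. MN1 to MN4 were held by 300, 196, 45 and 303 of 2394 at 48 hpf. High shares were not particular to MN4. At 48 hpf 60 of 62 MN3 cells were named MN2, and of 238 MN5 cells 223 were named MN4 and 14 MN1. No MN5 cell had such a name at 24 or 36 hpf. Of the MN4 cells of 24 hpf 6 were MN1 and 1, a cell of 1629 UMIs, GABAergic IN, a class of inhibitory interneurons. Of those of 36 hpf 43 were MN2 (53.8%, 42.2 to 65.0), 33 MN1 (41.2%, 30.4 to 52.8), 2 V3 IN and 2 pMN2. Of those of 48 hpf 143 were MN1 (68.1%, 61.3 to 74.3), 43 MN3 (20.5%, 15.2 to 26.6), 19 MN4 (9.05%), 2 MN2, and 1 each CMN Precursor, OPC and dl IN.

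Read the other way, the 48 hpf name MN3 was almost wholly integrated MN4, since 43 of the 45 cells with that name (95.6%) were MN4. Of the 300 cells named MN1 at 48 hpf 143 (47.7%) were MN4 and 102 were integrated MN1. The 303 cells that the 48 hpf table names MN4 shared only 19 cells (6.27%) with the integrated class, and 223 of them were integrated MN5. Their median was 3489 UMIs, which is below the 5546 of all 48 hpf cells outside the integrated class, so the name MN4 of that table does not mark the deep cells. At 36 hpf MN4 cells were 18.8% of the 176 cells named MN1 and 26.2% of the 164 named MN2.

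The high UMI counts of MN4 at 48 hpf lay mainly in the members with the stage name MN1. These 143 cells had a median of 12515 UMIs (quartiles 6823 and 21220.5) and included 38 of the 42 cells above 20000. The 43 members named MN3 had a median of 7242 (5776 and 11635) and the 19 named MN4 one of 4418 (3483 and 5145). The log2 ratio of median UMIs against all cells outside MN4 was 1.17 for the members named MN1 and 0.16 for all other members, which did not meet the size rule. The other motor neuron classes had a median of 4164 UMIs and an upper quartile of 5443. The lower quartile of the members named MN3, 5776, lay above both values, whereas that of the members named MN4, 3483, lay below both. The size rule was not applied to these sets against the other motor neurons. The 157 cells named MN1 that lay outside integrated MN4 had a median of 7161 UMIs. At like depth the ratio of genes to other cells was 1.12 in the members named MN1, 1.09 in those named MN3 and 1.08 in those named MN4. Median mitochondrial percents were 2.88%, 2.39% and 2.53% in these 3 sets.

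The members of 36 hpf were also split by stage name. The 43 named MN2 had a median of 5401 UMIs (4032.5 and 10491) and the 33 named MN1 one of 3666 (1418 and 4351). Of the 14 MN4 cells above 10000 UMIs 12 were named MN2 and 2 pMN2, while 14 of the 18 cells of up to 1959 UMIs were named MN1. Genes at like depth against other cells were at a ratio of 1.16 in the members named MN2 and 1.08 in those named MN1. Most deep members thus carried the stage name MN2 at 36 hpf and MN1 at 48 hpf, and each stage table has its own set of class names.

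**Figure D5:**
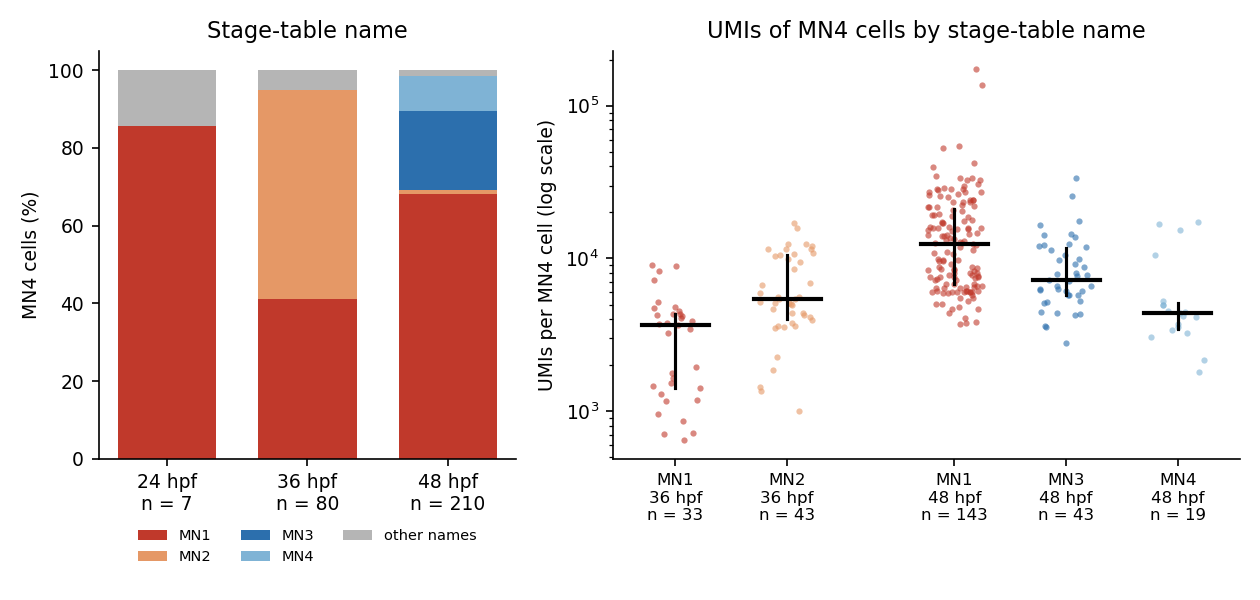
Left, stage-table names of MN4 cells as percent of the class at each stage; right, UMIs of MN4 cells (log axis) by stage-table name at 36 and 48 hpf, each point 1 cell, with medians and quartiles as bars. At 48 hpf the members named MN1 have a median of 12515 UMIs, those named MN3 7242 and those named MN4 4418.

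The libraries differed in ways that touch these values. The library totals were 16432785, 10656224 and 17562789 UMIs at 24, 36 and 48 hpf. None of the MN4 barcodes of 48 hpf and 1 of the 80 of 36 hpf occurred in another library, where 7 barcodes in all were shared between the 24 and 36 hpf libraries. Of the MN4 cells of 48 hpf, 88.1% had a start of 7 bases found in no other library, and 87.0% of all cells of that library did. Stage, barcode set and library cannot be told apart for the difference in MN4 UMI counts between 48 hpf and the earlier stages. The contrasts of MN4 with all other cells and with the other motor neurons were each made within 1 library.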

How the data were processed

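Cells sorted for EGFP were profiled with the 10x Chromium 3' kit in 3 libraries, 1 per stage, per the labels' protocols. The submitters' processing notes name Cell Ranger, Seurat and the build GRCz11, without versions or settings. The authors deposited UMIs and detected genes of each cell as raw counts. The mitochondrial percent was deposited by the authors per cell (largest value 4.995%, fewest UMIs 504, so filtering came before deposit), and percent times UMIs gave a whole number within 0.001 in all 6264 cells. The S and G2M scores were deposited by the authors, relative to the cells scored together, and their gene lists are not stated in the labels. All 6264 cells were matched between the integrated and the stage tables by stage and barcode, with equal UMIs and genes.

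Computed here were shares with exact Clopper-Pearson 95% intervals, exact conditional intervals of ratios of shares, medians, quartiles and ratios of medians, and values against cells within 10% of a cell's UMIs (at least 5 cells). Thinning to a fixed number of UMIs needs values per gene, so the window stood in its place. The ratio of median UMIs, the ratio of genes at like depth and the exact intervals of shares were tested on simulated data. Simulated members were random cells outside MN4 with scaled counts, so the wide spread of MN4 was not simulated. The other measures and intervals were not tested in this way. The members, the class and the size rules were chosen with earlier results of these data known. Classes named were all motor neuron classes and Pre-MN, the 3 with the highest median UMIs per stage, the neighbours of MN4 in that order, and stage names held by at least 5% of MN4 cells; other names were given after seeing the values. Intervals came from scipy 1.17.1 and tables from pandas 2.3.3 with numpy 2.4.6, under Python 3.11.15, and figures from matplotlib 3.10.9.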

Additional observations from a re-analysis of the deposited data

Results flagged for a closer look

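The contrast of MN4 with all other cells differed between the libraries, but each negative value had an interval that spanned both signs. These intervals come from the MN4 cells alone, with the medians of the other cells taken as fixed. The log2 ratio of median UMIs was -0.55 at 24 hpf (interval -2.73 to 0.293) and -0.02 at 36 hpf (-0.215 to 0.187). At 48 hpf it was 0.73 (0.510 to 1.04), which stood 1.28 above 24 hpf and 0.75 above 36 hpf. The log2 ratio of genes at a like depth was -0.02 at 24 hpf (-0.208 to 0.0759). It was 0.16 at 36 hpf and 0.15 at 48 hpf, which was 0.18 and 0.17 above 24 hpf. The 24 hpf values rest on 7 cells. These differences were not tested, since each stage is 1 library.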

How the results depend on the processing

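Of 125 alternative values for 22 results, 100 stayed within the interval of the value reported, 23 moved beyond it and 2 reversed. A reversal was counted only for results that met the size rule or had an interval that did not span 0. Other changes of sign were counted as staying within the interval. The log2 UMI ratio at 36 hpf was 0.13 in cells with at least 2000 UMIs and 0.17 against G1 cells. At 24 hpf the mitochondrial difference was -0.022 points in cells with at least 2000 UMIs. The 24 hpf results rest on 7 cells and had wide intervals, such as 0 to 41.0% for cells called S or G2M. Staying within those intervals shows little. Shares over MN1 to MN5 were counted as moved, but they have another denominator and are a different quantity. Intervals were exact binomial ones for shares and medians, and a factor of 1.5 for the share of UMIs. For contrasts of MN4 with other cells they came from the MN4 cells alone and leave out the error of the other cells. The first reversal was the log2 ratio of genes at a like depth at 36 hpf, -0.054 against other motor neurons only (0.16 against all). The second was the log2 UMI ratio at 48 hpf, -0.83 for cells named MN4 in the stage table. Its comparator was all cells without that stage name, which include most of the integrated class. The UMI ratio at 48 hpf was 0.41 with the deepest 5% of cells left out, which ended the call, and 1.14 against other motor neurons. It was 1.17 and 0.16 for members named and not named MN1. For cells named MN3 in the stage table, against all cells without that name, it was 0.34. Genes at a like depth at 48 hpf were at 0.14 without the deepest 5%, 0.17 with UMIs within 20%, 0.018 against other motor neurons and 0.10 against G1 cells. Mitochondrial differences against other motor neurons were 0.165 points at 36 hpf and 0.205 at 48 hpf. The share at 48 hpf was 6.82% without the deepest 5% and 6.78% in cells with at most 3% mitochondrial reads, where the log2 ratio over 36 hpf was 0.99 and no longer past the size rule. Over MN1 to MN5 the shares were 4.93%, 22.3% and 25.8%, with log2 ratios of 2.18, 0.21 and 2.39 for 36 over 24, 48 over 36 and 48 over 24 hpf. Cells called S or G2M were 1.45% at 36 hpf and 0% at 48 hpf without the deepest 5%, and 9.05% at 48 hpf by the stage table. All 24 hpf members with at least 2000 UMIs (100%) had a motor neuron name. Fewer cells follow from some settings by construction, and otherwise the cause was not tested. No paired analysis was possible because each stage has 1 library. Alternatives by stage name, G1 cells for genes and mitochondrial percent, UMIs without mitochondrial ones, the cells above 100000 UMIs and stage-table scores above 0.1 were chosen after seeing the data.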
